A study of Rattus norvegicus with 8 samples.

Results

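The response to lipopolysaccharide (LPS) was examined in adipose-derived mesenchymal stem cells (ASCs) of LEW rats on 4 of the 8 arrays of the study. The 2 LEW LPS arrays were set against the 2 LEW Control arrays, and each LPS array had its Control array of the same time point, 24 h or 48 h. The cells came from the inguinal and interscapular fat of 8-week-old Lewis/Jms rats and received LPS at 1 µg/ml, while the controls received PBS. RNA of 3 rats was pooled on each array, so the spread between single rats was not measured. The other 4 arrays held ASCs of PVG (Piebald Virol Glaxo) rats under the same conditions and entered only the estimate of the spread and a comparison of the strains. Signals of the 22523 probes were scaled to a common 75th percentile on every array and are given in arbitrary units. A probe counted as detected at a detection p under 0.05 against the negative controls of its array. The 8926 probes detected on both LEW Control arrays or on both LEW LPS arrays were tested, and they covered 6579 genes with a symbol.

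LPS is the endotoxin of Gram-negative bacteria. It is carried by LBP to CD14 and presented to TLR4, whose adaptors lead to the nuclear entry of NF-kB. NF-kB induces cytokines and chemokines together with its own inhibitors, and in stromal cells of fat these secreted products recruit leukocytes. In the LEW ASCs, Tlr4 was detected on none of the 4 arrays, with signals of 73.9 and 72.3 in the controls and 79.7 and 76.0 with LPS (24 h and 48 h, here and below). The co-receptor gene Cd14 was detected on all 4 arrays, at 207 and 272 without LPS and at 332 and 490 with it. The adaptor gene Myd88 was also detected on all 4, at 203 and 268 in the controls and 234 and 250 with LPS.

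The arrays were checked against cell type markers before the response was read. Of the 20 mesenchymal stem cell and fibroblast markers with a probe, 19 were tested, among them Thy1, which had signals of 1783 and 2499 without LPS and 1898 and 1816 with LPS. Of these 19, 4 were called up with LPS and none down, beside 2.46% and 1.38% of all 6579 genes. The 4 were Lum, Nt5e and Alcam, given below, and Twist2 (1.69-fold, limma adjusted p = 0.0450). Of the 23 macrophage and leukocyte markers, 22 were undetected on all 4 arrays, Ptprc (CD45) and Aif1 included, and their summed signal was 1611 to 1628 in the controls and 1633 to 1692 with LPS. Of 15 endothelial markers 9 were undetected on all 4 arrays, Cdh5 included, and the summed signal was 1153 to 1156 in the controls and 1157 to 1200 with LPS. Of 15 adipocyte markers with a probe 8 were undetected on all 4 arrays, the hormone genes Adipoq and Lep included, and 4 were tested and not called. The summed adipocyte signal was 2245 and 3919 in the controls and 2597 and 6330 with LPS. Of 9 pericyte markers 3 were undetected on all 4 arrays, Rgs5 included, 3 were tested and not called, and the sum was 2249 and 3251 in the controls and 1661 and 2555 with LPS. Whether these cell types have a part in the results was not tested. Each array detected 8947 to 9509 probes in the LEW groups, and with 2 arrays a side the precision of every value below is limited.

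In the fit over both time points, 302 of the 8926 probes (3.38%) passed a limma adjusted p of 0.05, 189 up with LPS (2.12%) and 113 down (1.27%). An unadjusted p under 0.05 was reached by 1327 probes. The passing probes moved the same way at both time points in all 302 cases. Of those that rose, 88 changed at least 2-fold, against 22 of those that fell. The spread behind each p comes from arrays that differ in time point and not from single rats, and a response that differs between the time points counts as spread. Without the time point as a block 49 probes passed up and 11 down. Leaving out 1 array moved the count up from 46 (without the LEW Control array at 48 h) to 387 (without the LEW LPS array at 24 h) and the count down from 11 to 275, without the same arrays.

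On single arrays, a change of at least 1.5-fold was shown by 171 probes up (1.92%) and 162 down (1.81%) at 24 h. At 48 h the same threshold was passed by 425 probes up (4.76%) and 324 down (3.63%). There was 1 array a side at each time, so these counts carry no test. The probes up at both times numbered 152, which is 88.9% of those up at 24 h and 35.8% of those up at 48 h. The probes down at both times numbered 57, which is 35.2% and 17.6% of those down at 24 h and 48 h. Of the 189 probes that rose in the fit, 164 had the larger change at 48 h, and so had 92 of the 113 that fell. The median change of all tested probes was -0.002 at 24 h and -0.015 at 48 h on the log2 scale.

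**Figure D1:**
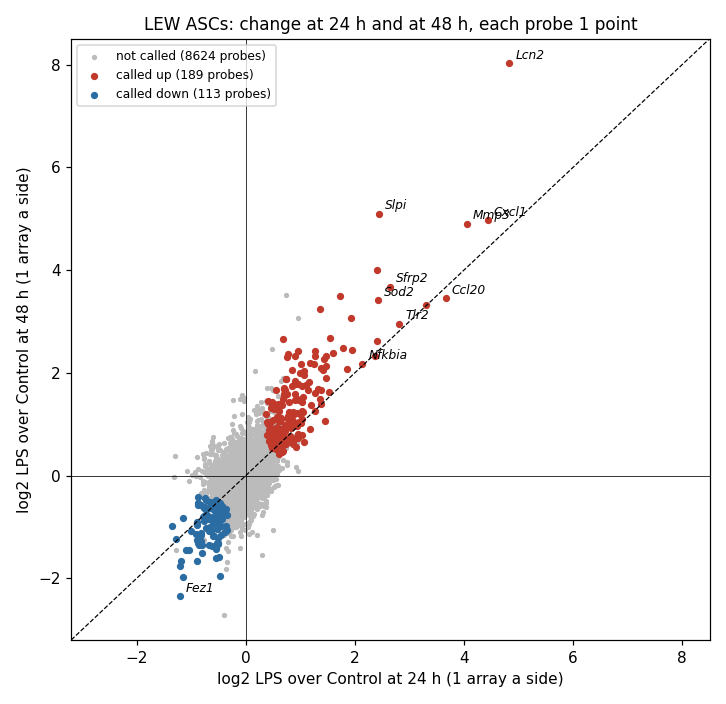
The log2 change with LPS at 24 h (x axis) against that at 48 h (y axis), 1 point for each of the 8926 tested probes, 1 array a side at each time; the dashed line marks equal change. The 189 probes called up lie to the upper right, most above the line, with Lcn2 at 4.83 and 8.03, and the 113 called down lie to the lower left.

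Lcn2, which encodes the iron-siderophore binding protein lipocalin 2, had the largest rise. Its signals were 120 and 106 in the controls and 3427 and 27792 with LPS. The LPS arrays lay far above both controls, and the mean change was 86.2-fold (log2 6.43, SE 0.59, limma adjusted p = 0.000429). In pooled RNA a change in the share of cells that express a gene and a change in RNA per cell cannot be told apart. Cxcl1, a chemokine gene for neutrophils, went from 114 and 124 to 2474 and 3863 (26.0-fold, log2 4.70, SE 0.25, limma adjusted p = 1.11e-05). Mmp3 encodes stromelysin 1, a protease of the extracellular matrix, and its signals were 85.1 and 80.0 in the controls, detected on 1 of them, and 1406 and 2387 with LPS. Its mean change was 22.2-fold (log2 4.47, SE 0.23, limma adjusted p = 8.91e-06). Slpi, the gene of a secreted inhibitor of neutrophil elastase, stood at 184 and 193 without LPS and at 1001 and 6634 with it (13.6-fold, log2 3.77, SE 0.49, limma adjusted p = 0.00411). For each of these genes the LPS groups and the controls did not overlap, and the 48 h LPS array was the highest.

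Ccl20, whose product attracts CCR6-bearing lymphocytes and dendritic cells, had control signals of 345 and 942 and LPS signals of 4381 and 10317. Its control was higher at 48 h than at 24 h, and the change was much the same at both times, log2 3.67 and 3.45 (11.8-fold in the fit, limma adjusted p = 7.49e-05). Pla2g2a, the secreted phospholipase A2 gene, was undetected in both controls (71.4 and 72.2) and gave 703 and 717 with LPS. This was a rise of at least 8.52-fold (limma adjusted p = 1.64e-06), where the bound sets undetected signals at the lowest detected signal of their array. Sod2, the mitochondrial superoxide dismutase gene, rose from 332 and 366 to 1782 and 3895 (7.56-fold, limma adjusted p = 0.000216). The other genes among the 15 largest rises were Wfdc18, of the whey acidic protein family, Sfrp2, the gene of a secreted Wnt modulator, Tlr2, Il1a, Rnd1, Cxcl6, the calmodulin-binding protein gene Pcp4, and Nfkbia. Their log2 changes ran from 2.16 to 3.20.

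**Figure D2:**
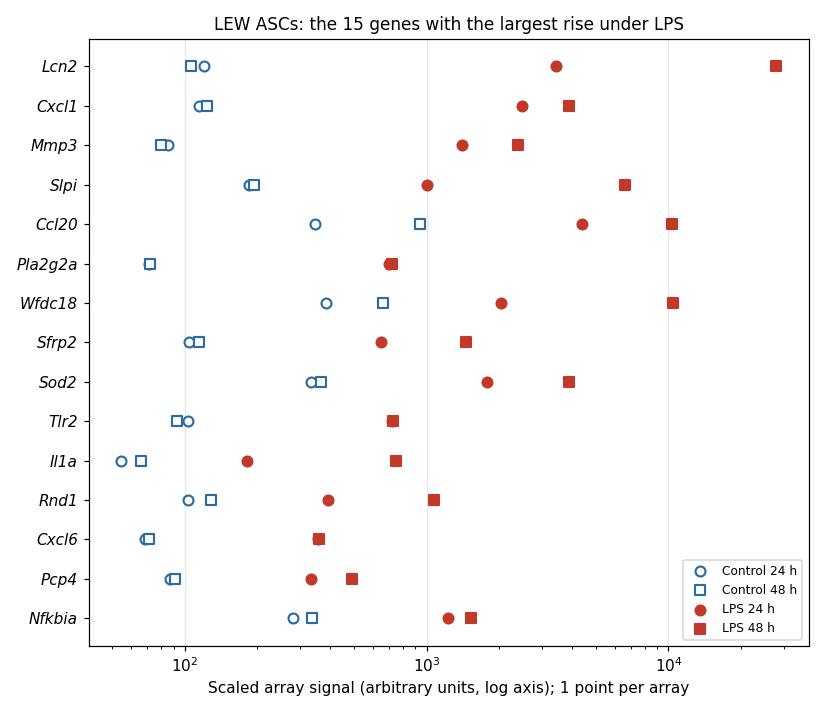
Scaled signals (log axis, arbitrary units) of the 15 genes with the largest rise, 1 point per array, open for Control and filled for LPS, round for 24 h and square for 48 h. In every row both LPS arrays lie above both controls, and the gap between 24 h and 48 h with LPS is wide for Lcn2 (3427 and 27792) and closed for Tlr2 (722 and 725).

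Promoter sequences are shown for induced genes of different roles, taken only from those with a match to the kappa-B motif, which NF-kB binds. The windows run from 250 bases before to 50 bases after the annotated start of each gene in RefSeq (build GRCr8), read 5′ to 3′ on the strand of the gene, with matches to the kappa-B consensus on either strand in capitals and overlapping matches joined. Cxcl1 (chr14:17479272-17479571, minus strand), Cxcl6 (chr14:17596368-17596667, minus strand) and Ccl20 (chr9:91836909-91837208, plus strand) encode chemokines and Il6 (chr4:5894526-5894825, minus strand) a cytokine. Tlr2 (chr2:171504508-171504807, minus strand) encodes a receptor for bacterial lipoproteins, and Nfkbia (chr6:78597023-78597322, minus strand) and Tnip1 (chr10:39584912-39585211, minus strand) encode inhibitors of the pathway.
Cxcl1: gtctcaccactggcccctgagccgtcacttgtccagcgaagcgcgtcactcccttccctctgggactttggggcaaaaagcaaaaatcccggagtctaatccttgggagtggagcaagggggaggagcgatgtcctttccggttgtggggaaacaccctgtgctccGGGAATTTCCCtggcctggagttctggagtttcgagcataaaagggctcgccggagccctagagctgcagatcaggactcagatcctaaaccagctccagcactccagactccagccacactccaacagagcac
Cxcl6: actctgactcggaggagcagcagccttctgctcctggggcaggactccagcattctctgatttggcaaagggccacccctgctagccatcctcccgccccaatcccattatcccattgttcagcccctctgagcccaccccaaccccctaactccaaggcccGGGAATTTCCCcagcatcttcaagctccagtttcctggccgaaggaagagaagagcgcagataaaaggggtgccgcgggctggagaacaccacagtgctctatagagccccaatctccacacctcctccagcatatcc
Ccl20: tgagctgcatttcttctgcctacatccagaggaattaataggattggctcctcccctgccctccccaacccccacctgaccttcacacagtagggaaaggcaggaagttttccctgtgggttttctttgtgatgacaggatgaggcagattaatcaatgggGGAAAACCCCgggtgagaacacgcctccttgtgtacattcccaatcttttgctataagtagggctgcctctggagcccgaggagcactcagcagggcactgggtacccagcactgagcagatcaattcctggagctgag
Il6: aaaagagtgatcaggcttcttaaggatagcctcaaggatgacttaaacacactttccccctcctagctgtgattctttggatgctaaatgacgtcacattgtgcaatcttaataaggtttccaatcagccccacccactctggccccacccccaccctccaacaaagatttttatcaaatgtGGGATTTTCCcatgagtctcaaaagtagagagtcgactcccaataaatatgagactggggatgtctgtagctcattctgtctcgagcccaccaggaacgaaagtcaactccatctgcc
Tlr2: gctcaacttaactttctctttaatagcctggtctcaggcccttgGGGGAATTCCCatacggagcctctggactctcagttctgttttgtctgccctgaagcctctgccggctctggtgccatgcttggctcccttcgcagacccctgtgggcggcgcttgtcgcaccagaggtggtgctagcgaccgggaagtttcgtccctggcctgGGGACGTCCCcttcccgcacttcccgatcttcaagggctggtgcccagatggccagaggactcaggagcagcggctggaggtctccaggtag
Nfkbia: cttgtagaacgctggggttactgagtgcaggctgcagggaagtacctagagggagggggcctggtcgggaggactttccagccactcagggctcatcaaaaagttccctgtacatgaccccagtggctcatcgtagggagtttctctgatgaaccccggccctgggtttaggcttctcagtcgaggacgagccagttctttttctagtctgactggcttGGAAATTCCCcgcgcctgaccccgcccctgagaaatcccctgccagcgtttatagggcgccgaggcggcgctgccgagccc
Tnip1: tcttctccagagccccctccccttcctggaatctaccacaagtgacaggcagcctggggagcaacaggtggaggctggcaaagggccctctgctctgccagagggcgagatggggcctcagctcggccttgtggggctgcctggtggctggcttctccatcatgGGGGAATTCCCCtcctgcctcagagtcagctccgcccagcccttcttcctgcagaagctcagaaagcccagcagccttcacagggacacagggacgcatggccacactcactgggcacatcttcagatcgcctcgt

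The first matched base lay 84 bases before the start site in Cxcl1, 88 in Cxcl6, 89 in Ccl20, 68 in Il6, 31 in Nfkbia and 86 in Tnip1. Tlr2 had matches at 206 and 42 bases before its start. Mmp3, Pla2g2a, Wfdc18, Sod2, Il1a and Pcp4, also among the largest rises, had no match in the same window. A match was present in 28 of the 127 genes that rose and had a promoter sequence (22.0%), in 20 of 61 that rose at least 2-fold (32.8%) and in 7 of 79 that fell (8.86%). Among all 5542 tested genes with a promoter sequence the share was 9.64%, and among all 27457 promoters in the table it was 7.60%. A match is a description of these letters and was not tested as a binding site.

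Among the receptors and adaptors of LPS sensing, 2 of 12 tested genes rose and none fell, beside 2.46% up and 1.38% down over all 6579 genes. The same shares stand beside the counts of every list below. Tlr2 went from 103 and 93.4 to 722 and 725 (7.37-fold, log2 2.88, SE 0.12, limma adjusted p = 1.64e-06), with nearly equal LPS signals at both times. Cd14, at the signals given above, rose 1.70-fold (limma adjusted p = 0.0301). Both Cd14 LPS arrays were above both controls, but the call was lost without any of 5 single arrays, with a limma adjusted p of up to 0.175. Lbp, the gene of the LPS carrier protein, had 1560 and 2163 in the controls and 2487 and 8017 with LPS, a log2 change of 0.67 at 24 h and 1.89 at 48 h that did not pass (limma adjusted p = 0.0519). Ripk2 and Nod1, of the intracellular NOD pathway, had log2 changes of 0.77 and 0.54 and did not pass (limma adjusted p = 0.0608 and 0.0841). The list's median log2 change was 0.28 at 24 h and 0.10 at 48 h.

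Several feedback inhibitors of NF-kB rose, and its subunits did not pass. Of 15 tested genes of the list 5 rose and none fell, beside 2.46% up and 1.38% down of all 6579 genes. The median log2 change was 0.36 at 24 h and 0.40 at 48 h. Nfkbiz and Zc3h12a, given below, entered the test only through the LPS arrays, since no more than 1 control array detected them. With probes detected on all 4 LEW arrays, 3 genes of the list were called up. Nfkbia, which encodes the inhibitor that holds NF-kB in the cytoplasm, had 280 and 336 in the controls and 1230 and 1524 with LPS (4.46-fold, log2 2.16, SE 0.14, limma adjusted p = 3.8e-05). Irak3, an inhibitory kinase gene of TLR signalling, went from 206 and 248 to 594 and 760 (2.98-fold, limma adjusted p = 0.000124). Tnip1, whose product works with the ubiquitin editor A20, went from 1700 and 1642 to 4103 and 3947 (2.41-fold, limma adjusted p = 0.000324). These genes had much the same change at both times, with log2 values of 2.14 and 2.18 for Nfkbia, 1.53 and 1.62 for Irak3 and 1.27 and 1.26 for Tnip1. Nfkbiz, the gene of a nuclear cofactor of NF-kB, rose 2.43-fold (limma adjusted p = 0.00576), and Zc3h12a, an RNase that degrades cytokine mRNAs, was undetected in both controls and also passed (limma adjusted p = 0.0161). Of the subunits, Nfkb1, Nfkb2 and Rela had adjusted p-values of 0.29, 0.052 and 0.95 in limma.

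Chemokines had the largest share of rising genes among the lists drawn up by function, with 8 of 12 tested genes up and none down. A further 19 of the 32 with a probe were undetected on all 4 arrays, among them Cxcl2, Cxcl3, Cxcl10 and Ccl5. The median log2 change of the tested genes was 0.90 at 24 h and 1.56 at 48 h. Cxcl6 (the gene older lists call Cxcl5) was undetected in both controls, at 68.7 and 71.5, and gave 356 and 358 with LPS, at least 4.28-fold higher (limma adjusted p = 1.59e-05). Ccl2, the main monocyte chemokine, was already high without LPS, at 3721 and 3243, and reached 8998 and 9810 (2.70-fold, log2 1.44, SE 0.13, limma adjusted p = 0.000429). Ccl7, a related monocyte chemokine, had 3357 and 3375 in the controls and 6233 and 10205 with LPS (2.37-fold, limma adjusted p = 0.0192). In both genes the groups did not overlap, although the controls were bright.

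Cxcl12, which retains stem cells and leukocytes in tissues, had control signals of 3251 and 3395 and LPS signals of 6756 and 9798 (2.45-fold, limma adjusted p = 0.00533). Cxcl13, a B cell chemokine, went from 120 and 133 to 224 and 460 (log2 1.34, limma adjusted p = 0.00749), and Cxcl16 from 127 and 138 to 224 and 315 (log2 1.01, limma adjusted p = 0.0140). The eosinophil chemokine Ccl11 had log2 changes of 0.37 at 24 h and 1.44 at 48 h and did not pass (limma adjusted p = 0.208). Leaving out the LEW Control array at 48 h reduced the chemokine count from 8 to 4, and leaving out any other single array gave 6 to 8.

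Among interleukins and other cytokines, 3 of 10 tested genes rose and none fell. These 3, Il1a, Il6 and Il1b, entered the test only through the LPS arrays, since no more than 1 control array detected them. With probes detected on all 4 LEW arrays, no gene of the list was called. Tnf, Il10, Csf2 and Csf3 were undetected on all 4 arrays, as were 19 of the 30 genes of the list with a probe. Il1a, an alarm cytokine, was undetected in both controls, at 54.7 and 66.1, and gave 180.5 and 745 with LPS, at least 4.40-fold higher (limma adjusted p = 0.00921). Il6 had 82.0 and 70.6 in the controls, detected on 1 of them, and 136 and 223 with LPS (2.29-fold, limma adjusted p = 0.0121). Il1b was undetected in both controls and at least 1.96-fold higher with LPS, at 119 and 223 (limma adjusted p = 0.0326). All these LPS signals were higher at 48 h than at 24 h, and the calls of Il1a, Il6 and Il1b were lost without the LEW Control array at 48 h. Over all single arrays left out, their limma adjusted p reached 0.0867, 0.140 and 0.261.

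Of 14 tested cytokine receptors 2 rose and none fell. Osmr, the oncostatin M receptor gene, had 159 and 155 in the controls and 265 and 567 with LPS (2.47-fold, limma adjusted p = 0.0138). Il4r was undetected in both controls and at least 2.12-fold higher with LPS (limma adjusted p = 0.0138). Of 8 adhesion molecules tested, Icam1, the ligand of leukocyte integrins, rose 1.53-fold (723 and 920 against 974 and 1587, limma adjusted p = 0.0441), as did Alcam, 1.91-fold (limma adjusted p = 0.0497). The Alcam call was lost under quantile normalization and in the authors' table. The Icam1 groups stood apart by only the step from 920 to 974, and its call was lost without any of 7 single arrays. Vcam1, at 94.5 and 97.8 in the controls and 86.2 and 81.0 with LPS, was low on every array and was not called.

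The acute-phase and metal-binding genes held 8 genes that rose among 17 tested and none that fell, with a median log2 change of 0.26 at 24 h and 0.59 at 48 h. Besides Lcn2, Slpi and Wfdc18 they were the following. Mt1, which encodes the zinc-binding metallothionein 1, went from 9247 and 7986 to 31589 and 44692 (4.37-fold, log2 2.13, SE 0.16, limma adjusted p = 0.000124). The zinc importer genes Slc39a14 and Slc39a8 rose, the first from undetected controls by at least 2.04-fold (limma adjusted p = 0.00253), the second by log2 1.30 (limma adjusted p = 0.0317). Hp, the gene of the haemoglobin-binding protein haptoglobin, was undetected in both controls, gave 147 and 312 with LPS, and was at least 2.58-fold higher (limma adjusted p = 0.0202). Slc40a1, the iron exporter gene, rose by log2 0.91 (limma adjusted p = 0.0129).

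In the complement list 1 of 13 tested genes rose, while 12 had a positive change at both times, beside 28.8% of all 6579 genes. C1r, a protease gene of the classical pathway, had 2952 and 4684 in the controls and 5360 and 11110 with LPS (2.07-fold, limma adjusted p = 0.00471). The alternative pathway gene Cfb was undetected in both controls, gave 120 at 24 h and 831 at 48 h with LPS, and did not pass (log2 0.73 and 3.52, limma adjusted p = 0.0669). Serping1, the C1 inhibitor gene, had log2 changes of 0.64 and 1.85 and also missed the threshold (limma adjusted p = 0.0723). In both genes the change at 48 h far exceeded that at 24 h, and such a gap counts as spread in the fit.

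Ptgs2 and Ptges, which encode enzymes of prostaglandin E2 synthesis, rose. Ptgs2, the inducible cyclooxygenase gene, had 342 and 245 in the controls and 813 and 1103 with LPS (3.27-fold, log2 1.71, SE 0.20, limma adjusted p = 0.00272). Ptges, the terminal synthase gene, went from 101 and 116 to 280 and 430 (3.21-fold, limma adjusted p = 0.000304). Gch1, which makes the cofactor of nitric oxide synthases, was at least 1.85-fold higher (limma adjusted p = 0.00887). Ptgs2, Ptges, Pla2g2a and Gch1 were the 4 of 12 tested genes of the prostanoid and nitric oxide list that rose, and none fell. Over all 6579 genes the shares were 2.46% up and 1.38% down. Pla2g2a and Gch1 entered the test only through the LPS arrays, since neither control detected them. With probes detected on all 4 LEW arrays, 2 genes of the list were called up and none down. Nos2, the inducible nitric oxide synthase gene, was undetected on all 4 arrays, at 60.2 to 67.9.

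Among 14 tested effectors by which mesenchymal stem cells restrain immune cells, 7 rose and none fell. They were Ptgs2, Ptges, Il6, Cxcl12, Ccl2, Stc1 and Nt5e, of which several also belong to the lists above. Stc1, the gene of the secreted hormone stanniocalcin 1, had 178 and 141 in the controls and 521 and 905 with LPS (4.33-fold, limma adjusted p = 0.0017). Nt5e, which encodes the adenosine-producing enzyme CD73, went from 625 and 406 to 1004 and 1134 (2.12-fold, limma adjusted p = 0.0194). Ido1, the tryptophan-degrading enzyme gene, stayed between 122 and 131 on all 4 arrays (limma adjusted p = 1.00), and Il10 was undetected. Hmox1 had log2 changes of 0.37 and 1.01 and did not pass (limma adjusted p = 0.0600).

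Genes of glycolysis and of the hypoxia response were mostly higher with LPS. Of 28 tested genes 25 had a positive change at both times and none a negative one at both (28.8% and 34.0% of all genes), 8 rose in the fit, and the median log2 change was 0.36 at 24 h and 0.63 at 48 h. Without the LEW Control array at 48 h the count fell to 2 and without the LEW LPS array at 48 h to 4. Ddit4, an inhibitor gene of mTOR signalling, had 545 and 514 in the controls and 1236 and 2354 with LPS (3.22-fold, limma adjusted p = 0.00312). Slc16a3, the lactate exporter gene, went from 6363 and 2901 to 13244 and 11235 (2.84-fold, limma adjusted p = 0.0138). Its controls differed from each other by more than its LPS arrays did, and the groups still did not overlap. Ndrg1 rose 1.74-fold (limma adjusted p = 0.00637). The glycolytic genes Hk2, Tpi1 and Aldoa and the pyruvate dehydrogenase kinase gene Pdk1 rose by log2 0.56 to 0.85 (limma adjusted p = 0.0139, 0.0194, 0.0450 and 0.0139). The calls of Tpi1 and Aldoa were lost with neqc, and that of Aldoa also under quantile normalization and in the authors' table. Of 20 other settings in all, Aldoa lost its call in 16 and Tpi1 in 8. Vegfa and Adm, both angiogenic and hypoxia-inducible, had log2 changes of 0.67 and 0.90 and did not pass (limma adjusted p = 0.0510 and 0.0836). Hif1a itself had log2 changes of -0.03 at 24 h and 1.51 at 48 h (limma adjusted p = 0.225).

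Matrix genes were called in both directions. Of 34 tested collagens and matrix assembly genes 5 rose and 3 fell, and of 14 tested matrix proteases and their inhibitors 3 rose and none fell. Over all 6579 genes the shares were 2.46% up and 1.38% down. Under quantile normalization and in the authors' table the collagen list had 3 up and 2 down, and with neqc 4 up and 1 down. The calls of Lum, Fmod and Col6a1, given below, were lost in the first 2 of these settings. The collagen-modifying enzyme genes P4ha2 and Plod2 rose, P4ha2 from 668 and 734 to 1287 and 2067 (2.33-fold, limma adjusted p = 0.00291) and Plod2 from 3275 and 2726 to 5298 and 8839 (log2 1.20, limma adjusted p = 0.0192). Thbs2, encoding the anti-angiogenic matrix protein thrombospondin 2, rose 2.64-fold (1450 and 1709 against 3198 and 5401, limma adjusted p = 0.0146). Of the small leucine-rich proteoglycans, Lum rose 2.44-fold (limma adjusted p = 0.0460) and Fmod by log2 1.54 (limma adjusted p = 0.0308), Dcn had a log2 change of 0.89 without passing (limma adjusted p = 0.102), and Ogn fell. The fibrillar collagen genes Col1a1, Col1a2 and Col3a1 were not called, with changes between -0.65 and 0.17 at the single times. Col6a1 fell by 0.74 on the log2 scale (limma adjusted p = 0.0361), and Loxl1, which cross-links elastin, fell 1.69-fold by its brighter probe (limma adjusted p = 0.0139), while its second probe did not pass (limma adjusted p = 0.0869). Mmp9 rose 1.83-fold (limma adjusted p = 0.0108) and Adamts7 2.27-fold (limma adjusted p = 0.0161).

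The genes that fell changed less than those that rose, with a median of -0.73 against 0.95 on the log2 scale over the called probes. Fez1, which encodes a kinesin adaptor, had the largest fall, from 1160 and 1331 to 503 and 261 (3.43-fold lower, log2 -1.78, SE 0.22, limma adjusted p = 0.00291). Aoc3, the gene of a vascular and adipocyte amine oxidase, had 617 and 647 in the controls and 268 and 192 with LPS (2.79-fold lower, limma adjusted p = 0.00485). Ogn, encoding the proteoglycan osteoglycin, went from 671 and 1260 to 294 and 398 (2.69-fold lower, limma adjusted p = 0.00801). None of the LPS signals of these genes reached the lower control.

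Ccnd1, which encodes cyclin D1 of the G1 phase, had control signals of 883 and 720 and LPS signals of 477 and 229 (2.41-fold lower, limma adjusted p = 0.00614). Akr1c14, a hydroxysteroid dehydrogenase gene, was higher at 48 h than at 24 h in both groups, at 943 and 1612 without LPS and 388 and 685 with it. The 48 h LPS array of Akr1c14 was still below both controls (2.39-fold lower, limma adjusted p = 0.00317). Avpr1a, the vasopressin receptor gene, went from 1695 and 2071 to 1214 and 537, with most of its fall at 48 h (log2 -0.48 and -1.95, limma adjusted p = 0.0354). The Avpr1a call was lost in 12 of 20 other settings, quantile normalization, the authors' table and neqc included. The other genes among the 12 largest falls were Tgfb3, Cilp, Ccn5, Itpr1, Spats2l and Fam180a, with log2 changes from -1.27 to -1.10.

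**Figure D3:**
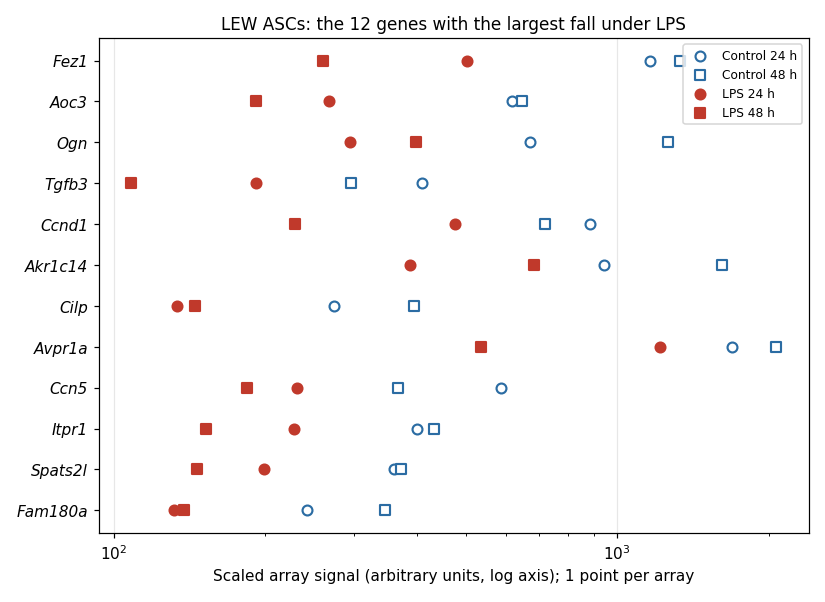
Scaled signals (log axis, arbitrary units) of the 12 genes with the largest fall, 1 point per array, open for Control and filled for LPS, round for 24 h and square for 48 h. Both LPS arrays lie below both controls in every row, and Fez1 shows the widest gap at 48 h (1331 and 261).

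Transcription factor genes of the immediate early and inflammatory response were called in both directions, 3 up and 4 down of 22 tested. Over all 6579 genes the shares were 2.46% up and 1.38% down. Under quantile normalization and in the authors' table the list had 1 up and 2 down. The calls of Cebpb, Nfil3, Egr1 and Egr2, given below, were lost there. With neqc the list again had 3 up and 4 down. The Nfil3 call was lost in 13 of 20 other settings. Cebpb, which encodes a factor of acute-phase and cytokine genes, had 2749 and 3865 in the controls and 5713 and 9137 with LPS (2.22-fold, limma adjusted p = 0.0327). Nfatc4 rose 1.88-fold (limma adjusted p = 0.00871) and Nfil3 by log2 0.95 (limma adjusted p = 0.0457). Egr1 fell from 234 and 312 to 154 and 137 (1.86-fold lower, limma adjusted p = 0.0253), and Egr2 from 353 and 611 to 228 and 236 (limma adjusted p = 0.0297). The Krüppel-like factor genes Klf4 (1602 and 1776 against 1011 and 884, limma adjusted p = 0.0121) and Klf2 (217 and 206 against 144 and 117, limma adjusted p = 0.0201) also fell. In the list of MAPK, JAK-STAT and AKT feedback genes none of 21 rose and 2 fell, the growth arrest gene Gadd45a (1.99-fold lower, limma adjusted p = 0.0155) and the glucocorticoid-induced gene Tsc22d3 (1113 and 1188 against 651 and 645, limma adjusted p = 0.00626).

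Of the TGF-beta ligands, receptors and targets, 1 of 25 rose and 3 fell, beside 2.46% up and 1.38% down of all 6579 genes. The ligand genes Tgfb3 (409 and 296 against 191 and 108, 2.42-fold lower, limma adjusted p = 0.00871) and Tgfb2 (1098 and 686 against 597 and 473, 1.63-fold lower, limma adjusted p = 0.0417) fell, as did the target Tgfbi (limma adjusted p = 0.0270). Tgfb1 had log2 changes of 0.43 and -0.28 and was not called. The repressor gene Tgif1 rose 1.88-fold (limma adjusted p = 0.0360). Under quantile normalization and in the authors' table the calls of Tgfb2 and Tgif1 were lost. No gene of the list rose there and 2 fell. The Tgfb2 call was also lost with neqc, and that of Tgfbi without the time point as a block. Pdgfa, a growth factor gene for mesenchymal cells, fell 1.51-fold (limma adjusted p = 0.0182), and the angiogenic genes Angptl4 and Fgf7 rose. For Angptl4 this held for the brighter probe by mean log2 signal (undetected controls, at least 2.99-fold higher, limma adjusted p = 0.00062) and not for its other probe (log2 0.12, limma adjusted p = 0.745).

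The antioxidant enzymes of the NRF2 pathway did not move as 1 group, with 1 up and 2 down of 23. Sod2, which is also a known NF-kB target, rose as given above. Which regulator acted on it was not tested. Nqo1, a quinone reductase gene, fell from 3998 and 3032 to 2291 and 1192 (2.11-fold lower, limma adjusted p = 0.00649). Gclc, which encodes the rate-limiting enzyme of glutathione synthesis, went from 1324 and 1214 to 967 and 618 (1.64-fold lower, limma adjusted p = 0.0352).

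Contractile genes had mostly negative changes. Of 20 tested, 14 had a negative change at both times, beside 34.0% of all genes, 2 fell in the fit and none rose, and the median log2 change was -0.24 at 24 h and -0.44 at 48 h. Csrp2, a LIM protein gene of smooth muscle, fell from 736 and 563 to 456 and 279 (1.81-fold lower, limma adjusted p = 0.0196), and Fhl1 fell 1.48-fold (limma adjusted p = 0.0330). Tagln, which encodes transgelin, had 4241 and 3259 in the controls and 3236 and 1677 with LPS and did not pass (limma adjusted p = 0.0780). Acta1 had log2 changes of -1.29 and -1.45, with controls as far apart as 1729 and 747, and did not pass (limma adjusted p = 0.152).

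Cell division genes were lower with LPS on the 48 h arrays. Of 23 tested mitosis and spindle genes, none changed 1.5-fold at 24 h, and 13 were at least 1.5-fold lower with LPS at 48 h, beside 3.63% of all tested probes. The median log2 change was 0.08 at 24 h and -0.60 at 48 h. Ccnb2, the cyclin B2 gene, had 1021 and 512 in the controls and 1250 and 176 with LPS, Tpx2 had 388 and 186 against 419 and 86.5, and Cdk1, the mitotic kinase gene, had 893 and 450 against 928 and 232. The summed signal of the list was 9001 and 4979 in the controls and 9262 and 3311 with LPS, so the controls were also lower at 48 h than at 24 h. In the fit over both times only Kif23, a kinesin gene of cytokinesis, was called (1.46-fold lower, limma adjusted p = 0.0349), and that call was lost without any of 7 single arrays. With the LEW LPS array at 24 h left out, the LPS group holds only the 48 h array, so calls of that fit are not given for this list. DNA replication genes were negative at both times in 15 of 22 cases, beside the same 34.0%, with medians of -0.11 and -0.33, and Orc6 was the 1 called, 1.47-fold lower (limma adjusted p = 0.0294). The Orc6 call was lost with neqc and without the time point as a block.

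**Figure D4:**
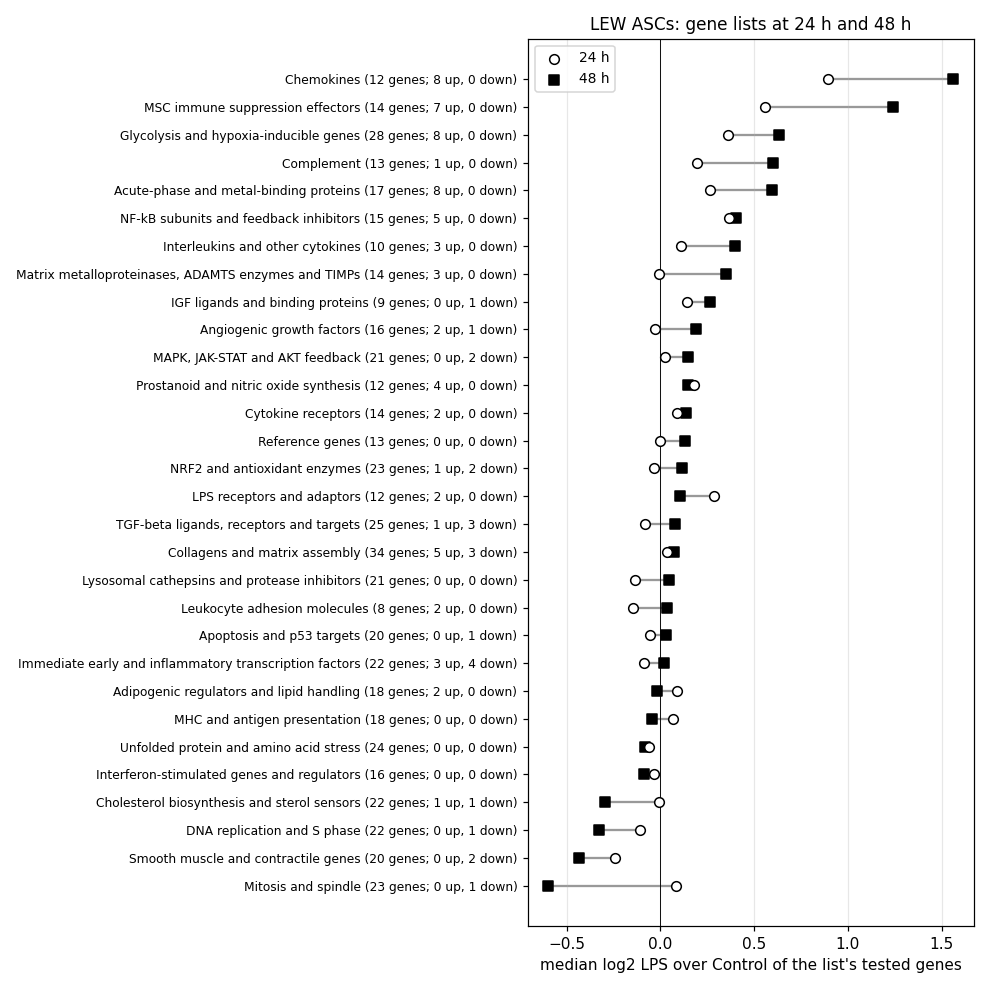
Median log2 change with LPS over the tested genes of each list (x axis) at 24 h (open circle) and at 48 h (filled square), with the number of genes tested and called in the fit beside each name. Chemokines stand highest, at 0.90 and 1.56, and the mitosis and spindle list moves from 0.08 to -0.60.

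By limma no gene was called among 16 tested interferon-stimulated genes, 18 genes of antigen presentation, 24 of the unfolded protein and amino acid stress response, 21 cathepsins and protease inhibitors or 13 reference genes. Of these 92 genes 21 had an unadjusted p under 0.05, beside 1327 of all 8926 tested probes. The analysis of variance without moderation called none of the 8926 probes. Over 20 other settings in all, no interferon-stimulated gene was called, while up to 3 genes of antigen presentation, 3 cathepsins or protease inhibitors and 1 reference gene were called up and up to 3 stress response genes down. Each of these highest counts was reached without the LEW LPS array at 24 h. Their median log2 changes lay between -0.13 and 0.13 at both times. Of the interferon-stimulated genes a further 17 of 35 with a probe were undetected on all 4 arrays. The cholesterol biosynthesis and sterol list had a median of -0.01 at 24 h and -0.30 at 48 h, with the cholesterol exporter gene Abcg1 up 1.52-fold (limma adjusted p = 0.0308) and the regulator Srebf1 down 1.48-fold (limma adjusted p = 0.0283) of 22 tested. In the p53 and apoptosis list Phlda3 fell 1.62-fold (limma adjusted p = 0.0497) of 20 tested, and in the list of IGF ligands and binding proteins Igfbp6 fell 1.81-fold (limma adjusted p = 0.0202) of 9. Among the adipogenic genes Sfrp2 and Angptl4 were called of 18 tested.

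The called genes whose change was larger at 48 h by most were Lcn2, Slpi, Il1a, Cd24 and Prl6a1. Lcn2 differed by 3.20 on the log2 scale between the times and Slpi by 2.66. Cd24, encoding a surface glycoprotein, had 144 and 110 in the controls and 231 and 691 with LPS. Those with the larger change at 24 h by most were Krt7, Mmp9, Creb3l1, Tgfb2 and Ccn5, and their log2 changes at 24 h and 48 h were 1.45 and 1.07, 1.08 and 0.66, 0.93 and 0.56, -0.88 and -0.54, and -1.35 and -0.99. Krt7, a keratin gene of simple epithelia and mesothelium, stood at 188 and 101 without LPS and 512 and 211 with LPS, and the 4 tested mesothelial markers, Krt7 included, had a summed signal of 721 and 708 in the controls and 1100 and 960.1 with LPS. Over all 9 mesothelial markers with a probe, 3 of them undetected on all 4 arrays, the sum was 1078 to 1108 in the controls and 1325 to 1480 with LPS. Whether these markers have a part in the result was not tested. The time points were not compared by a test, since each had 1 array a side.

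Of 20 tested genes that the tables of the study list for LPS, 13 rose and 2 fell. That list was drawn from these same arrays and is not independent evidence of its direction. Members not named above include Bdkrb1, the inducible bradykinin receptor gene, which rose 1.84-fold (limma adjusted p = 0.00448). Vegfc, Pgf and Shc1 were not called, with log2 changes of -0.61, -0.70 and 0.50 (limma adjusted p = 0.0884, 0.0984 and 0.0546).

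The response of LEW ASCs differed from that of PVG ASCs for 6 of the 8926 tested probes (0.0672%) by the limma interaction term, while 450 reached an unadjusted p under 0.05. Mmp3 had PVG signals of 56.2 and 68.9 in the controls and 135 and 100 with LPS, and the LEW change exceeded the PVG change by 3.57 on the log2 scale (SE 0.32, limma adjusted p = 0.0037). Sfrp2, Pla2g2a, Pcp4 and Cxcl6 also changed more in LEW, by 2.32, 2.13, 1.87 and 1.46 on the log2 scale (limma adjusted p = 0.0447, 0.00291, 0.00784 and 0.0326). All 5 were undetected in both PVG controls, so the PVG change is measured from the background. Ccl2 went the other way, with PVG signals of 868 and 757 in the controls and 7635 and 8291 with LPS. Its LPS signals were close to those of LEW (8998 and 9810), its controls were lower than the LEW controls (3721 and 3243), and the LEW change was smaller by 1.86 on the log2 scale (interaction -1.86, SE 0.19, limma adjusted p = 0.00569). Without either PVG Control array none of the 6 was called. Over the 8 fits that left out 1 array, Mmp3 and Pla2g2a lost the call in 2, Ccl2 in 3, Pcp4 in 4 and Sfrp2 and Cxcl6 in 6 each, with limma adjusted p-values of up to 0.257, 0.141, 0.247, 0.257, 0.929 and 0.352 in that order. Sfrp2 also missed the threshold under quantile normalization (limma adjusted p = 0.252), in the authors' table (0.25) and with neqc (0.0932).

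**Figure D5:**
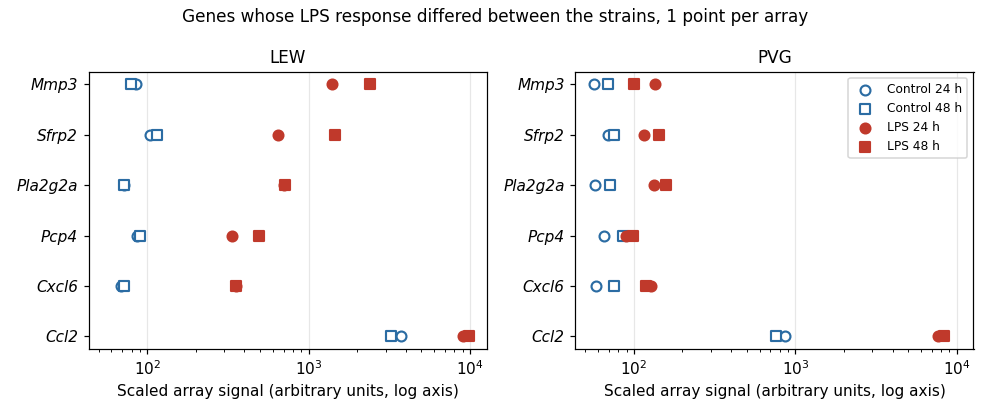
Scaled signals (log axis, arbitrary units) of the 6 genes whose LPS response differed between LEW (left) and PVG (right), 1 point per array, open for Control and filled for LPS, round for 24 h and square for 48 h. Mmp3 reaches 1406 and 2387 in LEW and 135 and 100 in PVG, while Ccl2 differs between the strains in its controls.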

How the data were processed

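RNA of LEW and PVG ASCs, without or with LPS for 24 h or 48 h, was hybridised to 8 Illumina RatRef-12 arrays. The first deposited table holds linear signal intensities that, per the file headers, were not normalized between arrays. It also holds the authors' detection p-value of each probe on each array. Scanner software and version were not given in the sources used here. The authors' second table of intensities, quantile-normalized before deposit, served as an alternative. All value columns were mapped to a sample.

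Each array was scaled so that its 75th percentile equalled the mean over arrays. A floor of 16 was set, below every signal, before log2 was taken. Background was not subtracted, so folds of dim probes are understated. A probe was kept where its detection p was under 0.05 on the 2 LEW Control arrays or on the 2 LEW LPS arrays. Of the probes called up 21 were undetected on both LEW Control arrays, and of those called down 3 on both LEW LPS arrays. Such probes entered the test only through the group where they were higher. With probes detected on all 4 LEW arrays, 7 chemokines and 6 acute-phase and metal-binding genes were called up, each against 8. The immune suppression effectors had 6 against 7, the matrix proteases and inhibitors 2 against 3 and the cytokine receptors 1 against 2. One limma 3.58.1 fit (R 4.3.3) over the 8 arrays held 4 group means and the time point as an additive block, with 3 residual and 6.73 prior degrees of freedom. The contrast was LEW LPS minus LEW Control, with Benjamini-Hochberg adjustment over all kept probes and a call at an adjusted p under 0.05. The pairing comes from the time points in the array titles, and the deviations of the groups at the same time correlated at 0.22 to 0.46 over 6 pairs of groups. The fit was tested on simulated data of this design. Differences at a single time use a 1.5-fold threshold and no test. Probes were named from the platform annotation: 13793 had 1 symbol and 8730 none.

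Members and gene lists were chosen with earlier results of these data known. Each gene was taken by its brightest probe over the LEW arrays. Named genes are the 15 largest rises and 12 largest falls, up to 4 passing members of each list by smallest p, genes of the study's LPS tables, the 5 with the most larger change at each time, and receptors and cell type markers. Further list members were named after their values were seen. A gene undetected on both arrays of a group is given as "at least" the fold over the lowest detected signal of each array. Marker lists of pericytes, adipocytes, skeletal muscle and Schwann cells had 3, 4, 4 and 5 tested genes and no call. Alternatives covered normalization, background, floor, filters, block, moderation and leaving out each array.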

Additional observations from a re-analysis of the deposited data

Results flagged for a closer look

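Among probes kept by LEW detection, the change with LPS differed between LEW and PVG ASCs by the interaction test in limma for 6 genes. LEW minus PVG, the log2 differences were 3.57 for Mmp3, 2.32 for Sfrp2, 2.13 for Pla2g2a, 1.87 for Pcp4, 1.46 for Cxcl6 and -1.86 for Ccl2. The probes ILMN_1359632, ILMN_1370706 and ILMN_2040557, which carry no gene symbol, were at least 1.5-fold lower with LPS at 24 h and at least 1.5-fold higher at 48 h in LEW ASCs. Their log2 change at 48 h exceeded that at 24 h by 1.27, 1.35 and 1.29. With 1 array a side at each time, this difference was not tested. On all 3 the control signal was lower at 48 h than at 24 h, for example 3847 and 1788 for ILMN_1359632, against 2489 and 2792 with LPS.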

How the results depend on the processing

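Against 189 probes up and 113 down, no detection filter gave 353 and 274 in limma, leaving out the time point block 49 and 11, the 4 LEW arrays alone 58 and 16, and an analysis of variance with the same terms and no moderation 0 and 0 (459 and 506 at an unadjusted p under 0.05). Probes down numbered 68 with quantile normalization and with the authors' table, and 192 with the block fitted within each strain. Leaving out 1 array gave 46 to 387 up and 11 to 275 down, the lowest without the LEW Control array at 48 h and the highest without the LEW LPS array at 24 h. An array left alone in a group took its spread from the other groups. At a fold of 2, 24 h had 56 up and 14 down, and 48 h 167 and 76; with neqc the counts at 1.5-fold were 394 and 381, and 682 and 714. The 6 interaction calls, tried under these settings after the data were seen, became 2 for probes detected on all 4 LEW arrays, 42 with no filter, 3 without the block, 0 in the analysis of variance, and 0 to 102 with 1 array left out. Of the 131 tested genes named in the text, 101 passed, and none of these changed sign under any setting. In all 8 fits that left out 1 array 33 of the 101 passed; 66 were lost without the LEW Control array at 48 h, 41 without the LEW LPS array at 48 h, 33 without the LEW Control array at 24 h and 1 without the LEW LPS array at 24 h. Of the 30 that did not pass, 7 changed sign and 20 passed under some setting. The cause of these differences was not tested. Signals near the background limit the folds of dim genes.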
